A study of Mus musculus with 8 samples.

Results

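The genes described here are 10 members of the bone morphogenetic protein (BMP) and transforming growth factor-beta (TGF-beta) signalling system, Bmp2, Bmp4, Bmp6, Eng, Acvrl1, Smad6, Smad7, Id1, Id2 and Id3, chosen by name from the 20408 genes in the expression tables and read in cells with at least 1 Pecam1 transcript. They were measured by droplet single-cell RNA sequencing of sorted tumour endothelial cells (ECs) in 8 libraries, 2 for each of 4 groups. The groups were ECs of MMTV-PyMT spontaneous breast tumours, in which the mouse mammary tumour virus promoter drives the polyoma middle T oncogene in mammary epithelium, and ECs of tumours grown in the mammary fat pad from cells of such tumours, each taken 3 h after the tumours were injected with PBS or with the STING agonist cGAMP. All mice were adults, ECs came from 2 mice per group by the study's methods, and the sort kept live CD31+ CD45- cells. The strain is labelled c57bl/6 in every library whereas the methods name FVB mice, so the strain is not settled. Because nothing ties a library to a mouse, the p-values of comparisons between groups measure the spread between libraries.

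BMP ligands are secreted dimers that bind pairs of serine/threonine kinase receptors, and the activated receptors phosphorylate SMAD proteins that enter the nucleus with a common partner. In ECs the receptor ALK1 (encoded by Acvrl1) and its co-receptor endoglin (Eng) carry much of the signal of circulating BMPs, and loss of either gene causes hereditary haemorrhagic telangiectasia. Typical targets are the ID genes, whose products bind basic helix-loop-helix factors without binding DNA, and Smad6 and Smad7, whose products inhibit the pathway in a feedback loop.

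The libraries held 8204 cells, of which 7159 had a Pecam1 transcript. Defining endothelial genes were high in those cells, with Cdh5 at 1035 to 1242 CPM (UMIs of the gene per 1000000 UMIs of a cell) over the libraries. Library depth was 7863535 to 16506086 unique molecular identifiers (UMIs), and replicate 1 of implanted cGAMP stood apart with a median of 2014 UMIs per cell against 8803.5 to 13148 in the others. Only 7 cell barcodes occurred in more than 1 library. Cells carrying at least 2 markers of mural cells, fibroblasts, epithelium or immune cells made up 7.29% to 15.1% of the Pecam1-positive cells in the PBS libraries and 23.0% to 35.5% in the cGAMP libraries, so this share moved with treatment. Levels below are the mean over cells of each cell's CPM, and fold changes are on the log2(CPM + 1) scale. With 2 libraries per group, groups that do not overlap are a description and not a test. The share of all genes with such groups was not counted.

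All 10 genes are annotated as protein coding on the GRCm38 mouse assembly. Positions are Bmp2 at chr2:133552159-133562885, Bmp4 at chr14:46383520-46390669, Bmp6 at chr13:38345107-38500302, Eng at chr2:32646595-32682669, Acvrl1 at chr15:101128522-101145336, Smad6 at chr9:63953076-64022059, Id1 at chr2:152736251-152737410, Id2 at chr12:25093799-25097140 and Id3 at chr4:136143497-136145755. No other gene shares exons with them on the same strand. Exons on the opposite strand overlap Bmp4 (Gm15217), Bmp6 (Txndc5), Eng (Fpgs) and Acvrl1 (Gm16031).

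Upstream sequence is shown for Smad6, the member with the largest arterial excess, and for Bmp4 and Eng, which were highest in the venous class. These are the 250 bases before the annotated start in RefSeq on GRCm38.p6, at chr9:64022060-64022309 on the minus strand, chr14:46390670-46390919 on the minus strand and chr2:32646345-32646594 on the plus strand. Capitals mark GTCTG or GGCGCC, letters that SMAD proteins are known to bind, on either strand.
Smad6: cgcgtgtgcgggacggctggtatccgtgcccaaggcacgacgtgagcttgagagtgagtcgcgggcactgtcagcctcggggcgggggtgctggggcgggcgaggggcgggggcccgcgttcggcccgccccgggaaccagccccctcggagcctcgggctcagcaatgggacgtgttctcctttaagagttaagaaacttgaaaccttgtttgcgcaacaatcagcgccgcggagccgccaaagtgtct
Bmp4: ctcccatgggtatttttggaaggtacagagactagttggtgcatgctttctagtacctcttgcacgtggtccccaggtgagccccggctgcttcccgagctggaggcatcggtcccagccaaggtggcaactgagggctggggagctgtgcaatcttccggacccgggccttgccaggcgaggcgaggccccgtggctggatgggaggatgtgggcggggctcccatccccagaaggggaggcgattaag
Eng: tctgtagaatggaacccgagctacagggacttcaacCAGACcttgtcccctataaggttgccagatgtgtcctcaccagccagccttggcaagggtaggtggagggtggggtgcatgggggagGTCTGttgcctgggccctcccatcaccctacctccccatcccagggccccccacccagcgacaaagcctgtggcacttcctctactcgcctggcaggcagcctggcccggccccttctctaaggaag
The Eng window held 2 matches to GTCTG and none to GGCGCC, and the Smad6 and Bmp4 windows held 0 matches to either. Among 32851 windows of the same length, 42.2% held GTCTG and 9.59% held GGCGCC. The matches are a description of these windows alone.

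To see where in the vasculature the genes were expressed, each Pecam1-positive cell was put in the vessel-type class of which it showed the most markers (at least 2 of 6, no ties). The classes were arterial-like (1216 cells), venous-like (1930), AQP7-positive capillary-like (976), tip-like (596), lymphatic-like (282) and proliferating (605), leaving 1554 cells in none. None of the 10 genes is among the markers. The classes are not pure, since the summed AQP7 capillary markers in the tip-like class (median 2057 CPM) were as high as its own markers (2032 CPM), and 67.9% of the AQP7 capillary-like cells passed the gate with no marker to spare. Only classes with at least 20 cells in a library were used, which left 4 libraries for the lymphatic-like class and 7 for the proliferating class. The 4 were replicate 1 of implanted PBS (21 cells), replicate 1 of spontaneous cGAMP (23) and replicates 1 and 2 of implanted cGAMP (132 and 40). Each class was compared with the mean of the other 5, with the library as a covariate. The p-values between classes measure the spread left among 43 library-by-class values once class and library are fitted. Each value counts alike, whatever its number of cells.

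The members were strongly patterned by vessel type, and the 3 ligands among them differed in where they were highest. This holds for the members alone, since other pathway genes went both ways in the arterial-like and lymphatic-like classes, as given below. Bmp6 was highest in the arterial-like class, Bmp4 in the venous-like class and Bmp2 in the tip-like class, while the receptor Acvrl1, both inhibitory SMADs and all 3 ID genes were highest in the arterial-like class. The members were chosen with earlier results of these data known, so their counts beside the share of all genes are a description. In the arterial-like class 8 members were higher and 1 lower than in the other classes, against 30.1% of 12440 genes called in either direction. The members' median log2 difference there was 1.45 against 0.00 for all genes tested. In the lymphatic-like class 7 members were lower and 0 higher, against 32.5% of all genes, with a median of -1.07 against 0.05. Most libraries with this class were cGAMP libraries, and in PBS libraries alone its Id3 difference was -0.46, against -1.04 over all.

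**Figure D1:**
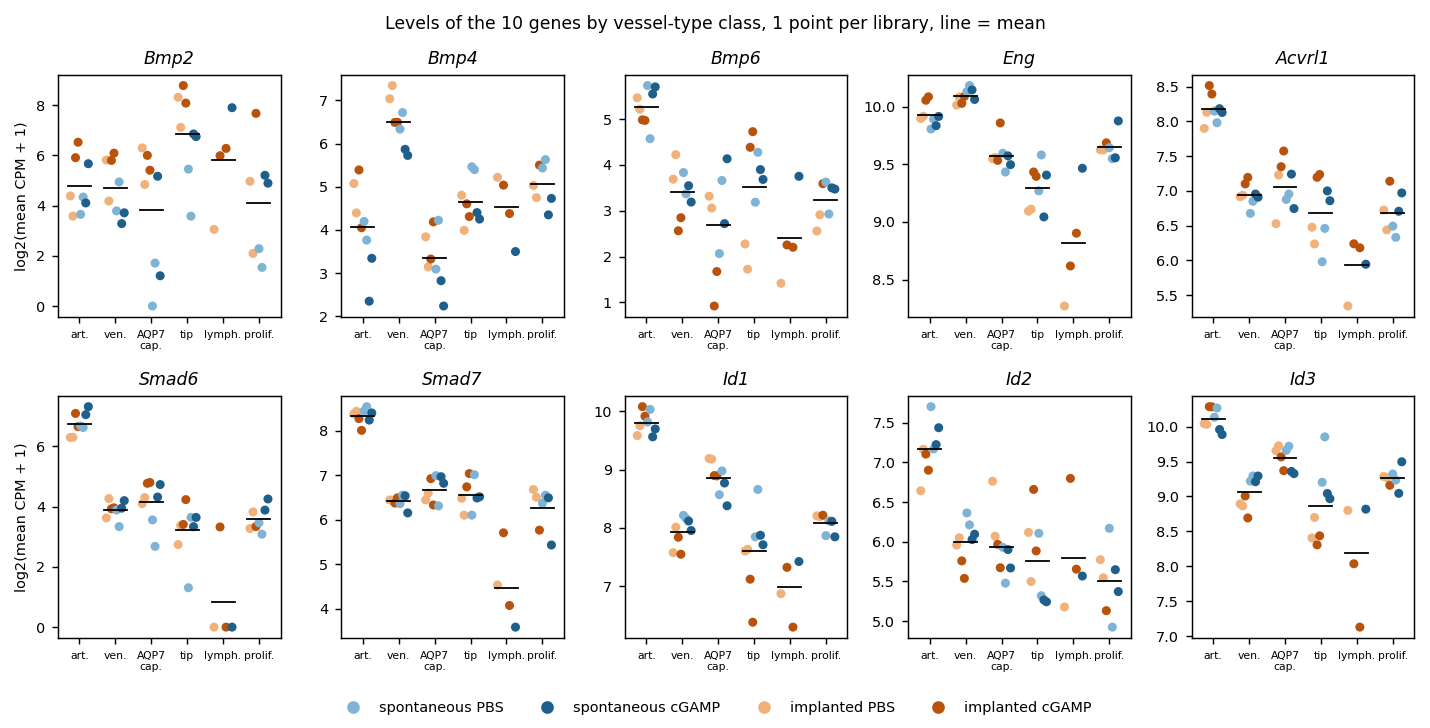
Level of each gene, as log2(mean CPM + 1), in the 6 vessel-type classes, with 1 point per library that had at least 20 cells of the class, coloured by group, and a line at the mean. Arterial-like points lie above those of every other class for Acvrl1, Smad6, Smad7, Id1 and Id3, venous-like points for Bmp4, and Smad6 was at 0 in 3 of 4 lymphatic-like points.

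Bmp4, a ligand with broad roles in vessel growth, measured 51.9 CPM at the lowest, 88.9 at the median and 161 at the highest over the 8 libraries in venous-like cells. In the proliferating class, next in order, it was at 19.4, 31.7 and 48.4 CPM, so the ranges of these neighbours did not overlap. The venous-like excess was 2.17 ± 0.19 on the log2 scale (standard error, adjusted p = 1.22e-11), and Bmp4 was lower in AQP7 capillary-like cells (-1.60 ± 0.19, adjusted p = 3.39e-08). The AQP7 capillary-like call was lost when cells were thinned to 2000 UMIs (-1.47, adjusted p = 0.109). Bmp4 was also lower in arterial-like cells (-0.75 ± 0.19, adjusted p = 0.00185), but not after removal of cells with markers of other cell types (adjusted p = 0.721) or after thinning (0.401).

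Bmp6, a ligand known for its part in iron sensing by liver ECs, measured 22.8, 39.7 and 52.3 CPM (lowest, median and highest library) in arterial-like cells and 2.30, 12.9 and 25.5 CPM in tip-like cells. The arterial-like value was the higher in 8 of 8 libraries, although the ranges overlapped. The arterial-like excess was 2.21 ± 0.30 (adjusted p = 7.71e-08). Its lower values in AQP7 capillary-like cells (-0.89 ± 0.30, adjusted p = 0.0374) and lymphatic-like cells (-1.10 ± 0.41, adjusted p = 0.0366) were lost in 9 and 6 of 16 alternatives.

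Bmp2 measured 10.9, 126 and 438 CPM in tip-like cells, the widest spread of any member in its leading class. The tip-like excess was 2.41 ± 0.47 (adjusted p = 0.000106), and tip-like cells ranked first in 6 of 8 libraries. Below the tip-like class the ranges of neighbouring classes all overlapped, so their order is not resolved.

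**Figure D2:**
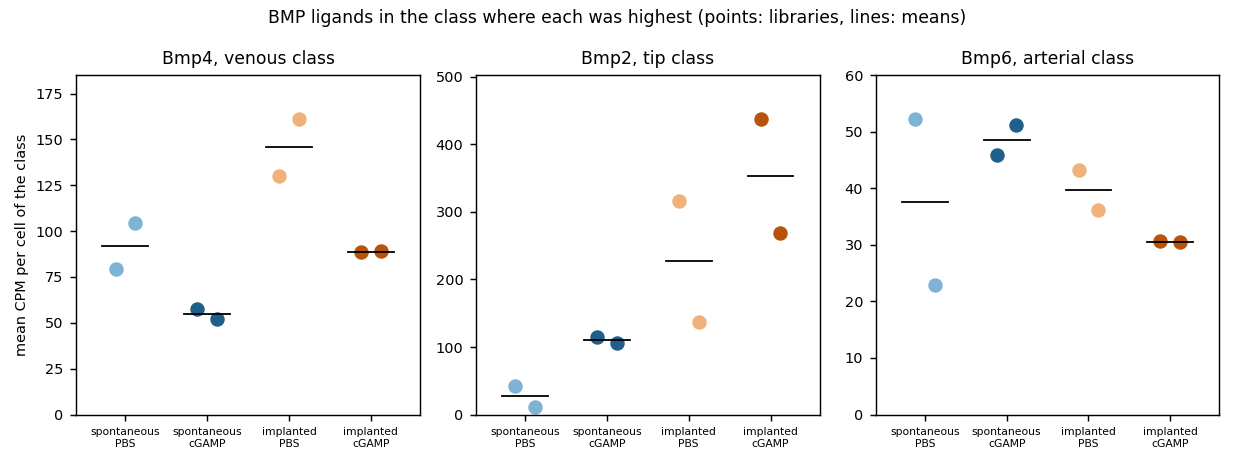
Mean CPM of Bmp4 in venous-like, Bmp2 in tip-like and Bmp6 in arterial-like cells, with 1 point per library and a line at each group mean, axes starting at 0. In venous-like cells the cGAMP libraries lie below the PBS libraries of the same model for Bmp4, and in tip-like cells of spontaneous tumours they lie above them for Bmp2.

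Among the receptors, Acvrl1 measured 238, 281 and 365 CPM in arterial-like cells, above the 91.3 to 189 CPM of the next class, AQP7 capillary-like cells. Its arterial-like excess was 1.53 ± 0.08 (adjusted p = 8.05e-19), and it was lower in lymphatic-like cells (-1.35 ± 0.11, adjusted p = 7.51e-13). Eng had another order. It measured 1032, 1086 and 1161 CPM in venous-like cells and 894, 958 and 1085 CPM in arterial-like cells, with the venous-like value higher in 7 of 8 libraries. Eng was called higher in both classes (0.64 ± 0.07 and 0.44 ± 0.07, adjusted p = 5.94e-09 and 3.69e-06) and lower in tip-like (-0.32 ± 0.07, adjusted p = 0.000541) and lymphatic-like cells (-0.90 ± 0.10, adjusted p = 7.71e-10).

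The inhibitory SMADs had the steepest arterial pattern. Smad6 measured 77.6, 101 and 159 CPM in arterial-like cells against 5.41 to 26.9 CPM in AQP7 capillary-like cells, a difference from all other classes of 3.63 ± 0.25 (adjusted p = 8.49e-16). In lymphatic-like cells Smad6 was at 0 in 3 of 4 libraries and at 9.03 CPM in the other, so no fold is given there. Smad7 measured 257, 335 and 373 CPM in arterial-like cells and 10.97 to 51.2 CPM in lymphatic-like cells, with differences of 2.27 ± 0.15 (adjusted p = 2.16e-16) and -2.39 ± 0.20 (adjusted p = 7.8e-13).

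Of the ID genes, Id1 fell in steps along the classes. It measured 756, 882 and 1082 CPM in arterial-like cells, 332, 475 and 584 CPM in AQP7 capillary-like cells and at most 404 CPM in any other class. It was higher in the first 2 classes (1.91 ± 0.12 and 0.77 ± 0.12, adjusted p = 1.05e-16 and 7.08e-06) and lower in tip-like cells (-0.73 ± 0.12, adjusted p = 7.28e-06) and lymphatic-like cells (-1.38 ± 0.17, adjusted p = 9.04e-09). Id3 followed the same order at its top, at 946, 1088 and 1248 CPM in arterial-like and 642, 781 and 846 CPM in AQP7 capillary-like cells, with differences of 1.11 ± 0.12 and 0.44 ± 0.12 (adjusted p = 1.5e-10 and 0.00657). Its AQP7 capillary-like call was lost when cells were thinned to 2000 UMIs (adjusted p = 0.211) and in cGAMP libraries alone (0.183). Id2 measured 99.0, 143 and 208 CPM in arterial-like cells (1.37 ± 0.15, adjusted p = 4.1e-10). Its next 5 classes overlapped, and its lower value in proliferating cells (-0.65 ± 0.16, adjusted p = 0.00268) was lost when cells were thinned to 2000 UMIs.

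Fewer members were called in the remaining classes. In the venous-like class 2 were higher (Bmp4 and Eng), against 11.7% of all genes. In AQP7 capillary-like cells 2 were higher and 2 lower, against 13.9%. In tip-like cells 1 was higher and 4 lower, against 26.4%, the lower ones being Eng, Id1, Id3 and Acvrl1 (-0.26 ± 0.08, adjusted p = 0.0165). The tip-like Acvrl1 call was lost in 4 of 16 alternatives, among them cGAMP libraries alone (-0.05, adjusted p = 0.785). That of Id3 was lost in 3, among them cGAMP libraries alone (adjusted p = 0.072), and that of Id1 after thinning to 2000 UMIs (0.0616). In proliferating cells 1 was lower, against 15.7%. The 8 members higher in arterial-like cells held in each of the 16 alternatives, including the fit without cells carrying markers of other cell types. That fit bears on mural cells, whose summed markers reached 1678 CPM in arterial-like cells of 1 library (median 213 CPM).

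Across the 43 library-by-class values, Id1 and Id3 varied together most closely among the members (Pearson r = 0.92), followed by Smad6 and Smad7 (0.91) and by Acvrl1 and Smad6 (0.91). Bmp2 and Id3 had the lowest value (-0.40). Among the 8391 other genes averaging 10 CPM or more, the most alike were Jag2 for Smad7 (r = 0.92), Slc9a3r2 for Id1 (0.92), Ptprr for Smad6 (0.89), Tm4sf1 for Acvrl1 (0.89), Epas1 for Id3 (0.86), Fam69a for Eng (0.86), Fkbp11 for Bmp4 (0.82), Alpl for Id2 (0.77), Ptprr for Bmp6 (0.76) and Itgb3 for Bmp2 (0.74). The points share libraries, depth and classes, so these values are a description.

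The response to cGAMP was then compared with PBS within each model over all Pecam1-positive cells. In spontaneous tumours 2 of 10 were called, both lower (Bmp4 and Id3), against 12.7% of 10424 genes, and in implanted tumours 1 of 10, also lower (Id3), against 25% of genes. At an unadjusted p under 0.05 there were 3 and 5 members, against 29.3% and 37.4% of genes. The members' median log2 changes were -0.10 and -0.08, beside -0.10 in each model for all genes tested. In whole-library means, fewer cells of a type and less RNA per cell cannot be told apart. Markers of arterial-like cells were lower after cGAMP (4 of 6 in spontaneous and 5 of 6 in implanted tumours), as were those of proliferating cells (4 and 6 of 6) and of venous-like cells (1 and 3 of 6). Lymphatic markers rose in implanted tumours (3 of 6, with 0 called in spontaneous tumours), where lymphatic-like cells were 1.46% and 2.1% of Pecam1-positive cells after PBS and 8.63% and 6.62% after cGAMP. Of the tip markers 2 rose in spontaneous tumours, and 3 rose and 2 fell in implanted tumours, and of the AQP7 capillary markers 1 fell in spontaneous tumours. The part of these shifts in the members' changes was not tested. Of the tested markers of other cell types, 3 of 3 fibroblast, 3 of 3 immune and 1 of 6 mural markers rose in implanted tumours and 2 of 6 mural markers in spontaneous tumours, with 0 of 4 epithelial markers called in either. The summed fibroblast markers were at 13.2 to 64.9 CPM after PBS and 98.4 to 99.2 CPM after cGAMP in spontaneous tumours, and at 13.4 to 18.5 and 60.1 to 89.2 CPM in implanted tumours. The summed immune markers were at 11.3 to 13.2 and 24.8 to 32.4 CPM in spontaneous and 9.97 to 14.0 and 38.6 to 151 CPM in implanted tumours, and the mural ones at 83.5 to 426 and 570 to 715 CPM and at 75.3 to 105 and 119 to 202 CPM.

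**Figure D3:**
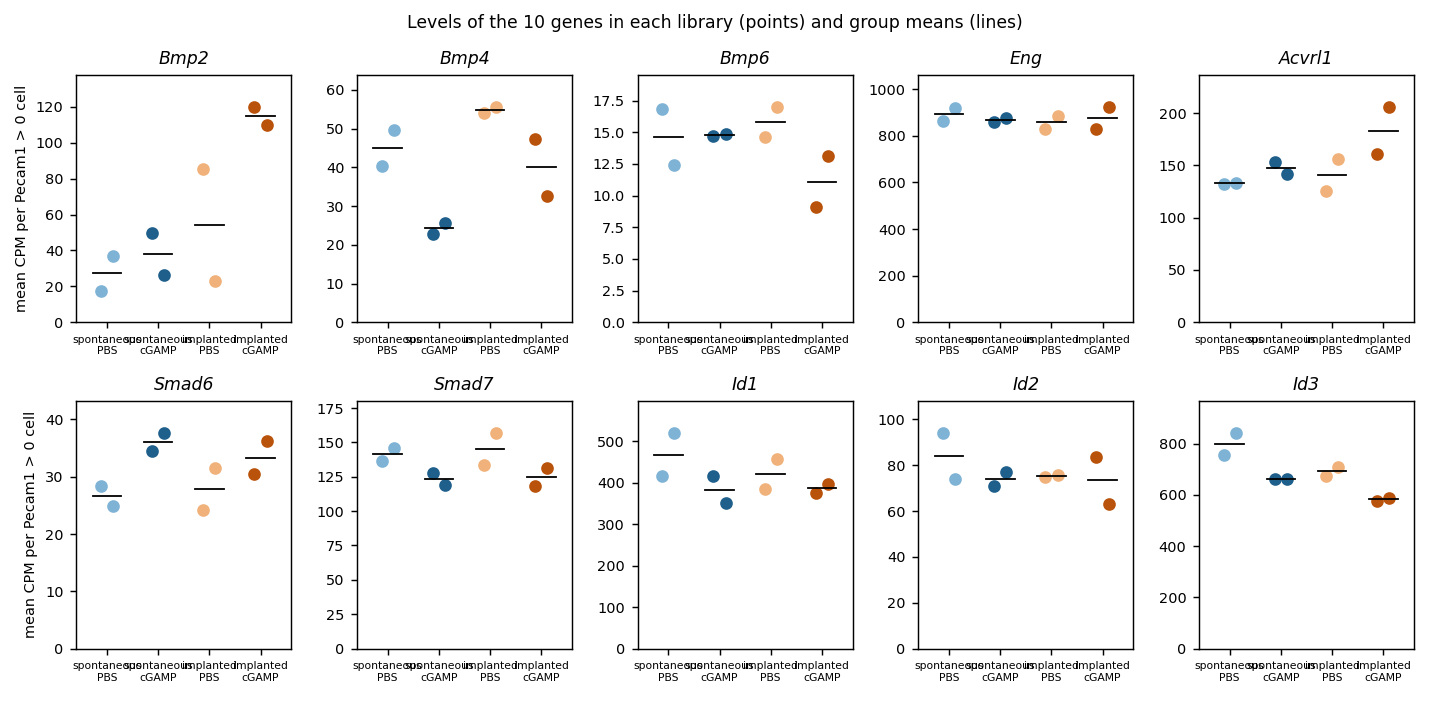
Mean CPM over Pecam1-positive cells for each gene, with 1 point per library, a line at the group mean and axes starting at 0. The cGAMP points lie below the PBS points in both models for Bmp4, Smad7 and Id3, and above them in both for Acvrl1. Smad7 and Acvrl1 were called in neither model.

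Bmp4 measured 40.2 and 49.7 CPM in the PBS libraries of spontaneous tumours and 22.9 and 25.7 CPM in the cGAMP libraries. The groups did not overlap, and the change was -0.86 ± 0.17 (adjusted p = 0.0117). The call was lost without replicate 2 of spontaneous PBS (adjusted p = 0.0838) or without replicate 1 or 2 of spontaneous cGAMP (0.1 and 0.0519). In implanted tumours it measured 54.0 and 55.6 CPM after PBS and 47.3 and 32.6 CPM after cGAMP, a difference of -0.47 ± 0.17 that was not called (adjusted p = 0.0735). It was called without cells carrying markers of other cell types (-0.55, adjusted p = 0.02) and without proliferating cells (-0.59, adjusted p = 0.0386). The difference also moved with the library left out. Without replicate 1 of implanted cGAMP, the shallow library, it was -0.73 (adjusted p = 0.00809), without replicate 2 it was -0.21 (adjusted p = 0.36), and with UMIs summed per library -0.16 (adjusted p = 0.397).

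Id3 measured 754 and 841 CPM after PBS and 660.4 and 660.0 CPM after cGAMP in spontaneous tumours. In implanted tumours it measured 674 and 710 CPM after PBS and 577 and 588 CPM after cGAMP. The changes were small, at -0.27 ± 0.07 (adjusted p = 0.0415) and -0.25 ± 0.07 (adjusted p = 0.0332), and were lost in 11 and 12 of 19 alternatives, among them median-of-ratios scaling (adjusted p = 0.2 and 0.189) and removal of cells with markers of other cell types (0.062 and 0.066). Without the shallow library the implanted value had an adjusted p of 0.0872.

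Bmp2 varied more between libraries than any other member. It measured 17.5 and 37.0 CPM after PBS and 49.6 and 26.4 CPM after cGAMP in spontaneous tumours, where the groups overlapped. In implanted tumours it measured 85.4 and 22.8 CPM after PBS and 120 and 110 CPM after cGAMP. That difference, 1.35 ± 0.54, was not called (adjusted p = 0.0967) and turned on which PBS library was kept, at 2.28 without replicate 1 of implanted PBS (adjusted p = 0.0091) and 0.42 without replicate 2 (adjusted p = 0.582).

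In a gate of 567 cells with both Kit and Nos2 transcripts, the Bmp2 level differed between libraries. In the spontaneous PBS libraries it was 14.5 and 44.4 CPM inside the gate and 17.7 and 36.3 CPM outside it, where gated cells were 6.74% and 7.82% of cells and held 6.5% and 14.0% of Bmp2 UMIs. In the spontaneous cGAMP libraries it was 130 and 139 CPM inside and 38.1 and 12.7 CPM outside. Gated cells there were 12.4% and 10.8% of cells and held 38.8% and 71.4% of Bmp2 UMIs. In the implanted libraries the Bmp2 level was 113 to 531 CPM inside and 17.0 to 96.4 CPM outside. Gated cells there were 5.43% to 10.8% of cells and held 38.9% to 65.7% of Bmp2 UMIs. These values are a description with no test.

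The other members did not pass the test in either model. Acvrl1 measured 125 and 156 CPM after PBS and 161 and 206 CPM after cGAMP in implanted tumours (0.38 ± 0.13, adjusted p = 0.0629), and was called in 7 of 19 alternatives. Smad6 differed by 0.42 ± 0.15 in spontaneous and 0.26 ± 0.15 in implanted tumours (adjusted p = 0.0993 and 0.247), and Smad7 by -0.19 ± 0.10 and -0.22 ± 0.10 (adjusted p = 0.229 and 0.148). Eng stayed between 830 and 924 CPM in all 8 libraries.

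**Figure D4:**
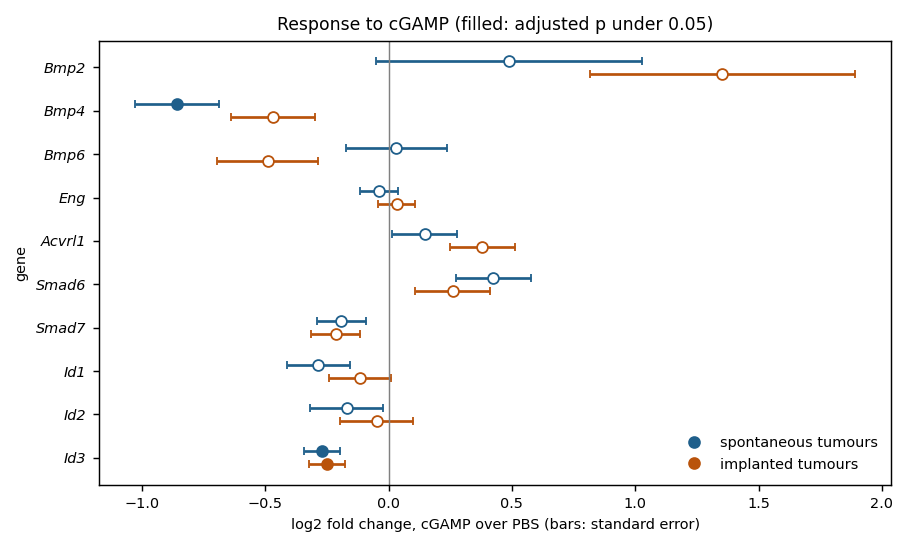
Log2 fold change of cGAMP over PBS for each gene in spontaneous and implanted tumours, with bars for the standard error and filled points where the adjusted p was under 0.05. Filled points are Bmp4 in spontaneous tumours and Id3 in both models.

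The markers that set the classes themselves changed with cGAMP, so a class may hold different cells after PBS and after cGAMP. The part of this in the changes within classes was not tested. Within classes, Bmp4 was lower after cGAMP in venous-like cells of both models. It measured 79.6 and 104 CPM after PBS and 57.3 and 51.9 CPM after cGAMP in spontaneous tumours, and 130 and 161 CPM after PBS and 88.8 and 88.9 CPM after cGAMP in implanted tumours. Neither pair of groups overlapped. The changes were -0.73 ± 0.16 (adjusted p = 0.0147) and -0.70 ± 0.16 (adjusted p = 0.0102). Bmp4 was the member called in the spontaneous venous-like fit (1 of 10, against 7.05% of genes), and the implanted one called Bmp6 as well (2 of 10, against 15.3%). Bmp6 there measured 11.9 and 17.7 CPM after PBS and 4.91 and 6.20 CPM after cGAMP (-1.25 ± 0.32, adjusted p = 0.0203), and was not called without the shallow library (adjusted p = 0.0544). The Bmp4 call in implanted tumours held without that library and was lost without replicate 2 of implanted PBS (adjusted p = 0.117). In spontaneous tumours it was lost without replicate 2 of spontaneous PBS (0.169) or either cGAMP library (0.0715 and 0.125). With cells thinned to 2000 UMIs neither Bmp4 value passed (adjusted p = 0.625 in spontaneous and 0.106 in implanted tumours).

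In tip-like cells Bmp2 measured 42.8 and 10.9 CPM after PBS and 114 and 106 CPM after cGAMP in spontaneous tumours (2.28 ± 0.44, adjusted p = 0.0033), the member called of 10 against 5.52% of genes. The PBS values rest on 24 and 6 UMIs, and without replicate 2 of spontaneous PBS the change was 1.35 (adjusted p = 0.0592). Without cells carrying markers of other cell types it was also 1.35 (adjusted p = 0.133). In implanted tumours Bmp2 was at 316 and 137 CPM after PBS and 438 and 269 CPM after cGAMP, and was not called (adjusted p = 0.351).

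In tip-like cells of implanted tumours 3 members were called, against 11.9% of genes. Acvrl1 rose from 88.1 and 74.4 CPM to 146 and 150 CPM (0.86 ± 0.23, adjusted p = 0.0219). Id1 fell from 193 and 198 CPM to 138 and 82.3 CPM (-0.87 ± 0.26, adjusted p = 0.0359). Without replicate 2 of implanted cGAMP the Id1 change was -0.50. Without cells carrying markers of other cell types neither gene was called (adjusted p = 0.0503 for Acvrl1 and 0.0588 for Id1). Bmp6 rose from 3.84 and 2.30 CPM, which are 7 and 5 UMIs, to 19.9 and 25.5 CPM, which are 30 UMIs each (2.56 ± 0.55, adjusted p = 0.00494). None of these groups overlapped, and all 3 calls were lost when cells were thinned to 2000 UMIs or when replicate 2 of implanted PBS was left out (adjusted p = 0.213, 0.209 and 0.0753 for Acvrl1, Id1 and Bmp6). Without the shallow library Acvrl1 was not called (0.0787).

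In arterial-like cells of implanted tumours Bmp2 rose from 19.9 and 10.95 CPM to 58.9 and 90.9 CPM (2.23 ± 0.45, adjusted p = 0.00534), the member called of 10 against 6.99% of genes. Without cells carrying markers of other cell types its adjusted p was 0.0763, and without replicate 2 of implanted PBS or of implanted cGAMP it was 0.086 and 0.0908. With cells thinned to 2000 UMIs the direction turned (-0.45, adjusted p = 0.976). In arterial-like cells of spontaneous tumours limma called 0 members against 4.03% of genes, and in AQP7 capillary-like cells 0 members against 2.31% of genes in spontaneous and 3.24% in implanted tumours. At an unadjusted p under 0.05 these fits had 4, 3 and 2 members, against 16.6%, 12.7% and 15.4% of genes.

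Between models, limma called 0 members after PBS, against 7.83% of genes, and 1 had an unadjusted p under 0.05, against 24.2% of genes. After cGAMP 1 of 10 was called, against 13.8% of genes, namely Bmp4, which was higher in implanted than in spontaneous tumours (0.68 ± 0.17, adjusted p = 0.0314). That call was lost without replicate 1 or 2 of spontaneous cGAMP (adjusted p = 0.155 and 0.121) or replicate 1 of implanted cGAMP (0.114), and without cells carrying markers of other cell types (0.0616). Bmp2, at 49.6 and 26.4 CPM in spontaneous and 120 and 110 CPM in implanted tumours after cGAMP, had groups that did not overlap and a larger difference (1.64 ± 0.54) that was not called (adjusted p = 0.0739). It was called in 4 of 19 alternatives, among them the fit without cells carrying markers of other cell types (adjusted p = 0.0443). In the test of the difference between the responses of the models, 0 members were called by limma, against 0.662% of genes, and 0 had an unadjusted p under 0.05, against 13.4% of genes. For Bmp4 that difference was 0.39 ± 0.24 (adjusted p = 0.521), and for Bmp2 0.86 ± 0.76 (adjusted p = 0.671).

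The wider pathway was read from 73 other ligands, receptors, SMADs, inhibitors and targets, of which 72 were in the tables. In the library comparisons 49 passed the filter on low values. In spontaneous tumours 5 were higher and 7 lower after cGAMP, beside 12.7% of all genes called, and in implanted tumours 12 were higher and 8 lower, beside 25% of all genes. By role, 6 of 12 ligands and binding proteins were higher and 3 lower in implanted tumours, 4 of 12 targets were higher and 1 lower, and 0 of 5 SMADs were called in either model. Of the 9 receptors 0 were higher, with 2 lower in spontaneous and 1 in implanted tumours. Between classes 56 of the pathway genes passed the filter. In the arterial-like class 21 were higher and 14 lower (median log2 difference 0.20), beside 30.1% of all genes called. There 9 of 15 inhibitors were higher and 3 lower, and 3 of 13 ligands and binding proteins higher and 4 lower. In the lymphatic-like class 22 were higher and 15 lower (median 0.09), beside 32.5% of all genes. Of the 13 ligands and binding proteins there, 8 were higher and 1 lower.

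Inhbb, which encodes an activin subunit, rose in implanted tumours (1.74 ± 0.18, adjusted p = 0.000204), and Gdf15, a stress-induced cytokine, in spontaneous tumours (1.47 ± 0.16, adjusted p = 0.000374). Only the largest changes of each comparison are named, so this does not set the models apart. Gdf15 was at 15.5 ± 2.55 CPM after PBS and 28.8 ± 3.91 CPM after cGAMP in implanted tumours. Inhbb was at 117 ± 27.9 and 164 ± 42.2 CPM in spontaneous tumours (SD, n = 2). Of 12 ligands and binding proteins 0 were called in the difference between the responses. Ltbp1, which encodes a latent TGF-beta binding protein, rose in both models (0.79 ± 0.18 and 1.21 ± 0.18, adjusted p = 0.0221 and 0.00139). Its call in spontaneous tumours was lost in 6 of 19 alternatives, among them thinning to 2000 UMIs (adjusted p = 0.757).

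Another latent TGF-beta binding protein gene, Ltbp4, fell in both models, from 401 ± 12.6 to 183 ± 18.1 CPM in spontaneous tumours and from 366 ± 60.4 to 133 ± 26.3 CPM in implanted tumours (SD, n = 2; limma log2 changes -1.13 ± 0.15 and -1.46 ± 0.15, adjusted p = 0.000978 and 0.000154). Htra1, which encodes a secreted protease, fell in both as well (-1.13 ± 0.26 and -1.58 ± 0.26, adjusted p = 0.0218 and 0.00223). The homeobox gene Msx1, a BMP target, fell in implanted tumours (-1.03 ± 0.21, adjusted p = 0.0062). The Htra1 call in spontaneous tumours was lost in 5 of 19 alternatives and the Msx1 call in 2.

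Between models after PBS 4 of the 49 were higher and 6 lower in implanted tumours, beside 7.83% of all genes called. The larger ones were Tgm2 (0.76 ± 0.11, adjusted p = 0.00308), Fstl1 (0.74 ± 0.11, adjusted p = 0.00476) and Tgfbi (0.69 ± 0.12, adjusted p = 0.00925), and in the other direction Ctgf (-1.002 ± 0.12, adjusted p = 0.0015), Inhbb (-0.71 ± 0.18, adjusted p = 0.0464) and the co-receptor gene Tgfbr3 (-0.68 ± 0.10, adjusted p = 0.00366). After cGAMP 7 were higher and 3 lower, beside 13.8% of all genes. Cyr61 (1.01 ± 0.12, adjusted p = 0.00206) and Thbs1 (1.02 ± 0.30, adjusted p = 0.0497) were higher, whereas the decoy receptor gene Bambi (-0.73 ± 0.12, adjusted p = 0.00556), Smad1 (-0.47 ± 0.11, adjusted p = 0.0221) and Smad5 (-0.35 ± 0.10, adjusted p = 0.045) were lower. Calls of Thbs1, Smad5, Inhbb and Smad1 were lost in 13, 12, 9 and 5 of 19 alternatives. Those of Tgfbi, Fstl1 and Bambi were lost in 2, 1 and 1. The comparisons share their libraries, so they are not independent of each other.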

How the data were processed

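The authors aligned the reads to mm10 with Cell Ranger 3.0.0, filtered cells and genes and normalised them in Seurat 3.1.1, and deposited natural log values per cell. The deposited cells had at least 501 genes and up to 10.0% mitochondrial UMIs. Dividing by the smallest value of each cell on the linear scale gave whole UMIs for 100% of values within a tolerance of 0.01. The members and gene lists were chosen with earlier results of these data known.

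CPM were averaged over the Pecam1-positive cells of a library, or of a class with at least 20 cells in it, and log2(CPM + 1) was fitted with limma 3.58.1 (R 4.3.3, empirical Bayes with a mean trend). Genes needed 5 CPM in at least 2 columns. Library comparisons used all 4 groups in 1 fit, and calls have a Benjamini-Hochberg adjusted p under 0.05 over all genes tested. On simulated data for the implanted response, with 10332 genes, the fit recovered 82.1% of genes changed 2-fold and 43.3% of those changed 1.5-fold. The changed genes, 67 at each of these folds, all averaged at least 10 CPM, and 9 unchanged genes were called. In the data 25% of genes were called in that response, so these shares need not hold for single members. Doublets were not called. Other pathway genes are named when called with a mean of at least 10 CPM, up to 3 in each direction per comparison (1 gene that met the rule is not reported here), and like genes are the closest of the 3 with the highest r. Alternatives changed the pseudocount (0.25 or 5), filter, scaling, summing, cell set, depth, block and libraries. Depth sets counting precision and also class membership, since markers must be detected: 5605 of 7159 cells had a class, and 4594 of the 6158 cells thinned to 2000 UMIs. The Kit and Nos2 gate is a description.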

Additional observations from a re-analysis of the deposited data

Results flagged for a closer look

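Ctgf, a TGF-beta and YAP target, responded differently to cGAMP in the models by the test of the difference itself (1.16 ± 0.17 on the log2 scale, limma, adjusted p = 0.0264). It fell from 174 ± 9.41 to 116 ± 2.28 CPM in spontaneous tumours and was at 86.8 ± 16.3 after PBS and 130 ± 9.42 CPM after cGAMP in implanted tumours (SD, n = 2 libraries). The call was lost in 8 of 19 alternatives, with adjusted p from 0.00278 to 0.191, and its cause was not tested.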

How the results depend on the processing

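Of 2022 values of single members under alternatives, 1740 kept their direction and side of the threshold, 98 lost a call and 43 gained one, and 137 that were called in neither setting changed sign. With no filter on low values the count of members called became 0 in the spontaneous and implanted responses and between models after cGAMP, 0 in the arterial-like implanted and tip-like spontaneous fits, and 1 in the tip-like and venous-like implanted fits. Median-of-ratios scaling and cells with at least 2000 UMIs each gave 1 in the spontaneous response, and summed UMIs gave 1 there, 2 in the implanted response and 2 between models after cGAMP. Without cells carrying markers of other cell types the counts were 1 and 2 in the spontaneous and implanted responses, 0 in the arterial-like implanted and tip-like spontaneous fits, and 1 in the tip-like and venous-like implanted fits, and without proliferating cells 2 were called in the implanted response. Thinning to 2000 UMIs gave 1 and 2 in the responses, 1 for AQP7 capillary-like and 3 for tip-like cells between classes, and 0 in the arterial-like, tip-like and venous-like fits that had calls. The members behind these counts changed. In the implanted response Id3 was replaced by Bmp4 and Acvrl1 without cells carrying markers of other cell types. With summed UMIs it was replaced by Acvrl1 and Smad7, and after thinning by Bmp2 and Acvrl1. With median-of-ratios scaling or cells with at least 2000 UMIs it was replaced by Acvrl1. Between models after cGAMP, Bmp2 replaced Bmp4 after thinning and without cells carrying markers of other cell types. For the proliferating class PBS or cGAMP libraries alone gave 0 and a 3-marker gate 2, and for the tip-like class cGAMP libraries alone gave 3. The cause was not tested.

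Leaving out 1 library at a time gave 0 to 2 calls in the spontaneous response, the implanted response and between models after cGAMP. Between classes it gave 3 to 5 (AQP7 capillary-like), 1 to 2 (proliferating) and 4 to 6 (tip-like). Within classes it gave 0 to 1 in the AQP7 capillary-like spontaneous, arterial-like implanted and venous-like spontaneous fits, 0 to 2 and 0 to 3 in the tip-like spontaneous and implanted fits, and 0 to 3 in the venous-like implanted fit. A group left with 1 library is assumed to vary like the others. After thinning, 4 values changed sign with a call in either setting: Id2 in proliferating cells (0.17), Bmp2 in venous-like cells (1.76), Bmp2 in the arterial-like implanted response (-0.45) and Bmp6 in the venous-like implanted response (0.41).

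The replicate block left 2 members called in the spontaneous response and 1 in the implanted response and changed no member's call. Deviations of same-numbered libraries correlated at -0.22 to 0.13. With 2 libraries per group these values are a description and cannot settle whether the numbers pair the libraries.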
